A study of Anolis carolinensis with 2 samples.

Results

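Genes without introns make up a small and mixed part of a vertebrate genome. Among them are many developmental transcription factors, for example of the SOX, FOX and POU families, as well as connexins, potassium channel subunits and G protein-coupled receptors. Others are retrocopies, which form when a spliced messenger RNA is reverse transcribed and inserted back into the genome, and which often carry no promoter of their own. Because such models have no splice junctions, a read from their RNA cannot be told from a read of genomic DNA or of an unspliced neighbour at the same place.

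The longer intronless gene models of the green anole, Anolis carolinensis, were examined in 2 whole embryos collected 0 to 1 days after laying. The younger had 28 somite pairs and the older 38, stages that the series sets beside mouse embryos of 9.5 and 10.5 days. Neither a genetic change nor a treatment is given in the labels for either embryo. There was 1 library per stage, so no value has a replicate error, no p-value is given, and stage, embryo and library cannot be told apart.

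A model was included when it was the only gene and only transcript of its locus, when its genomic span equalled its transcript length (a single exon), and when that length lay between 1001 and 2250 bases and was divisible by 3. Models on the small linkage groups and on the contig AAWZ02037236 were left out. This gave 371 models of 21085 genes. Their lengths ran from 1002 to 2226 bases with a median of 1281, and 178 of them (48.0%) were 1250 bases or shorter. The nearest intronless models beyond the length limits had 999 bases (75.8 FPKM at 28 somite pairs and 74.7 at 38) and 2262 bases (0 and 0.57 FPKM). The 3 models at the limits inside had 1.56 and 0 FPKM, 5.04 and 6.71 FPKM (both of 1002 bases), and 60.5 and 63.5 FPKM (2226 bases). FPKM is the number of fragments relative to effective transcript length and to the mapped fragments of the library.

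The files pair no model with a gene name, so which of the 371 code for transcription factors, which are retrocopies, and which are neither was not analysed here. Models are given by position on AnoCar2.0, 1-based. All lie within single annotated exons, and no untranslated region or strand was used. Of the 371, 171 lay on chromosomes 1 to 6, 160 on GL scaffolds and 40 on the short AAWZ contigs. Most stood alone, and 28 had a neighbour of like length among the 371 (within 10%, at most 50 kb away), in 11 groups of 2 and 2 groups of 3. On the chromosomes, the nearest gene of any kind was a median of 27.0 kb away (quartiles 11.1 and 59.9 kb), against 12.0 kb for spliced genes of the same length range. The label places them outside the protocadherin arrays. The 2 that lie closest to the arrays on chromosome 4, at 77746112 to 77747416 and 77840680 to 77841999, had only 0 and 1.14 FPKM and 1.22 and 2.33 FPKM.

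The libraries held 13859393 mapped fragments at 28 somite pairs and 12908610 at 38, recovered from the steps of the FPKM values. Of these, 47.9% at 28 and 56.6% at 38 lay outside the listed transcripts. The 371 models took 29598 fragments at 28 and 25724 at 38, or 0.214% and 0.199% of mapped fragments. Among the 371 models the lowest numbers listed above 0 were 8.69 at 28 and 10 at 38. For a model of 1005 bases on GL343306.1 (873701 to 874705), 10 fragments gave 1.06 FPKM, so in the shortest models the lowest number listed lies close to the detection level of 1 FPKM.

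A smaller share of the longer intronless models was detected than of spliced genes of the same length, while at 38 somite pairs the share was close to that of all genes. At an FPKM of 1 or more, 149 of 371 (40.2%) were detected at 28 somite pairs and 176 (47.4%) at 38. Of all 21085 genes, 46.7% and 47.1% were detected. Spliced single-transcript genes of 1001 to 2250 bases were detected at 59.8% and 60.8% of 5451. As for the 371 models, their length was divisible by 3, and the small linkage groups and AAWZ02037236 were left out. Intronless models shorter than the 371 were detected at 9.27% and 10.7% of 3216, and longer ones at 63.7% and 69.6% of 102. These 2 intronless classes were not held to a length divisible by 3. Of the 3216 shorter models, 2806 were listed at 0 in both embryos. That class took in any length below the range, and kinds of gene were not separated in it. Its share is therefore not that of a like set of genes. In share detected the 371 models lay between the other intronless classes, and their number detected was 27 higher at 38 than at 28. Of the 187 detected in either embryo, 138 were shared, 11 were detected at 28 alone and 38 at 38 alone. Of the 10783 genes of any kind detected in either embryo, 9005 were shared, 845 were detected at 28 alone and 933 at 38 alone. A further 148 of the 371 (39.9%) were listed at 0 in both, close to the 42.0% of all genes.

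Detection varied with length and with the kind of assembled sequence. From 1001 to 1250 bases, 76 of 178 models were detected at 28 and 83 at 38. From 1251 to 1500 bases the numbers were 25 and 39 of 84, the widest gap between the embryos of any length class. From 1501 to 1750 bases they were 19 and 23 of 60, and from 1751 to 2000 bases 15 and 16 of 28. The longest class, from 2001 to 2250 bases, had 14 and 15 of 21. On chromosomes 1 to 6, 94 of 171 were detected at 28 (55.0%) and 117 at 38 (68.4%). On GL scaffolds 50 and 54 of 160 were detected, and on AAWZ contigs 5 and 5 of 40. Spliced genes showed the same order, at 71.9%, 49.7% and 19.9% at 28 and 73.9%, 49.6% and 20.4% at 38. The gain in number at 38 was thus mostly on the chromosomes, where every one except chromosome 5 (7 and 7 of 16) had more models detected at 38. Chromosome 1, with 55 models, had 34 and 42. Among all genes the number detected also rose on the chromosomes, from 5743 at 28 to 5868 at 38 of 10490. It did not rise on GL scaffolds (3755 and 3744) or AAWZ contigs (227 and 208). A gain mostly on the chromosomes was thus not particular to the intronless models.

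**Figure D1:**
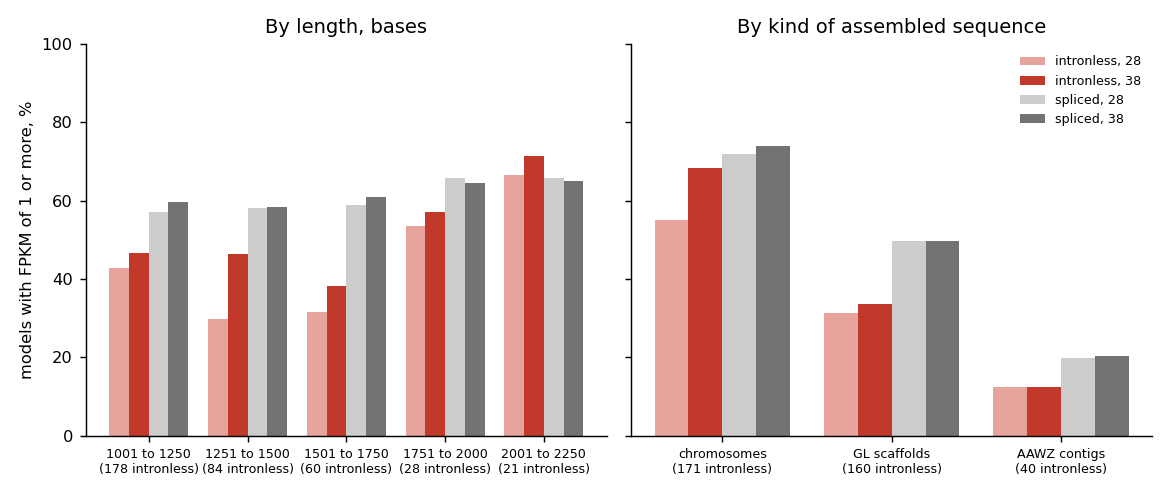
Share of models with an FPKM of 1 or more, in percent, at 28 and 38 somite pairs, for the 371 intronless models (red) and spliced genes of the same length range (grey). The numbers under the bars are intronless models. Detection was lower for intronless models in the 4 shorter length classes of both embryos and fell from chromosomes (55.0% at 28) to AAWZ contigs (12.5%) in both kinds of gene.

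A listed 0 did not mean the same for every model. In every model listed above 0, the effective length in the deposited table differed from the annotated length. Among the 185 models listed at 0 at 28 somite pairs, it differed in 76 and equalled the annotated length in 109. At 38, it differed in 84 of 166 and was equal in 82. The classes went with the other embryo. Of the 76 zeros at 28 with an adjusted effective length, 31 (40.8%) were listed above 0 at 38, against 6 of the 109 others (5.50%). Of the 84 adjusted zeros at 38, 17 (20.2%) were listed above 0 at 28, against 1 of the other 82 (1.22%). Spliced genes of the same length range showed the same split, so it was not particular to intronless models. Their shares were 29.4% against 6.42% for zeros at 28, and 22.5% against 2.40% for zeros at 38. An effective length as annotated in both embryos was found for 72 models, all listed at 0 in both. The number of fragments behind a listed 0 is not in the files, and whether the adjusted length marks loci with some fragments was not tested.

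**Figure D2:**
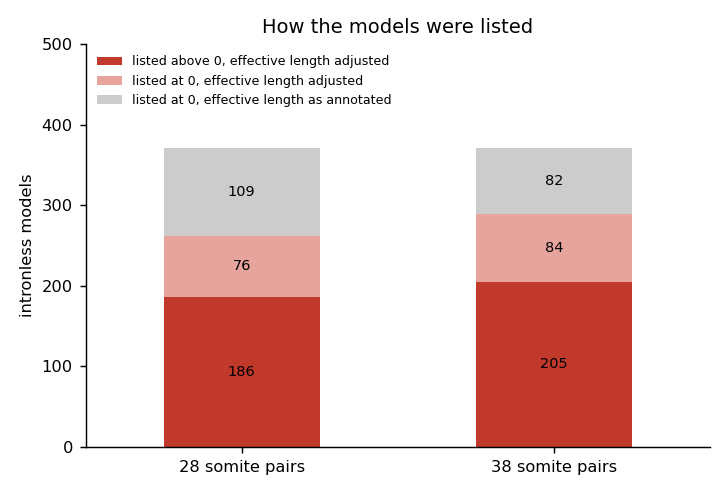
Number of the 371 intronless models listed above 0, listed at 0 with an effective length that differs from the annotated length, and listed at 0 with the annotated length, in each embryo. The class with neither a listed value nor an adjusted length held 109 models at 28 somite pairs and 82 at 38.

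Levels were low for most models and high for a few. Over the 187 expressed models, those with an FPKM of 1 or more in at least one embryo, the median was 2.83 FPKM at 28 somite pairs (quartiles 1.18 and 9.44) and 3.51 at 38 (1.89 and 8.77). Spliced genes of the same length range had medians of 7.41 and 6.55. An FPKM of 20 or more was reached by 22 models at 28 and 20 at 38, and 2 models exceeded 100 in both. The 8 models with most fragments held 33.9% of the fragments of all 371 at 28 and 32.6% at 38. Across the 187 models, which share both libraries and are not independent replicates, Pearson's r of log2(FPKM + 1) between embryos was 0.873 and Spearman's rho 0.825. Over 3556 expressed spliced genes they were 0.941 and 0.932.

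The 8 most abundant models, by mean FPKM, were mostly close between the embryos. The first, on chromosome 1 (120160338 to 120161432, 1095 bases), had 143.5 FPKM at 28 and 157.9 at 38, from 1550 and 1594 fragments. It stands 107.9 kb from the nearest listed gene. The ratio of fragments per mapped fragment, 38 over 28, was 1.10 (95% counting interval 1.03 to 1.18). Such intervals are exact (Clopper-Pearson) and cover counting error only, not differences between embryos or library preparations. The second, on chromosome 1 (181137095 to 181138222, 1128 bases), had 119.9 and 118.7 FPKM, a ratio of 0.99 (0.92 to 1.06). Its fragment number at 28, 1476.50, was not whole. A model on chromosome 1 (6142212 to 6143564, 1353 bases) had 85.6 and 70.2 FPKM, a ratio of 0.81 (0.75 to 0.88). A model on chromosome 1 (132985748 to 132987739, 1992 bases) had 43.5 and 45.2 FPKM, a ratio of 1.05 (0.96 to 1.14). So 4 of the 8 lay on chromosome 1. On scaffold GL343277.1 (202022 to 204247), the longest of the 371 models had 60.5 and 63.5 FPKM, a ratio of 1.05 (0.97 to 1.13). Models on GL343681.1 (198715 to 199770) and GL343721.1 (270387 to 271406) had 56.2 and 48.8 FPKM and 50.9 and 44.7 FPKM. Their ratios were 0.88 (0.79 to 0.98) and 0.89 (0.80 to 0.99), close to that of all single-transcript genes summed, 0.84. The remaining abundant model, on chromosome 2, had the largest fold towards 28 and is described with those.

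The balance between the embryos depended on which models were counted. Of the 187 expressed models, 38 passed the filter through 38 somite pairs alone and 11 through 28 alone, so models counted for a high value in one embryo bear on every value over the 187. The median log2 difference, log2(FPKM + 1) at 38 minus the same at 28, was 0.10 over the 187 models (quartiles -0.30 and 0.69). It was -0.18 over all 10783 expressed genes and -0.17 over the 3556 spliced genes. Higher FPKM at 38 was found for 104 of the 187 models (55.6%), against 37.6% of all expressed genes. Over the 138 models with an FPKM of 1 or more in both embryos the median was -0.016, and 66 (47.8%) were higher at 38. All 9005 genes so filtered had a median of -0.18, with 34.7% higher at 38. The pseudocount of 1 FPKM understates differences of low models. Shorter intronless models had a median of 0.20 over 396 and longer ones 0.08 over 74. Under this filter the positive sign was thus shared with the other intronless classes. In those classes 98 and 9 had passed through 38 alone, and 53 and 3 through 28 alone. Over those with an FPKM of 1 or more in both embryos, the medians were 0.06 over 245 shorter and 0.04 over 62 longer models. The sign was then not shared with the -0.016 of the 138 models. With 1 library per stage the gap between intronless and spliced genes has no test. The larger share of fragments outside listed transcripts at 38 (56.6% against 47.9%) moved in the same direction, and its part in the difference was not tested.

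**Figure D3:**
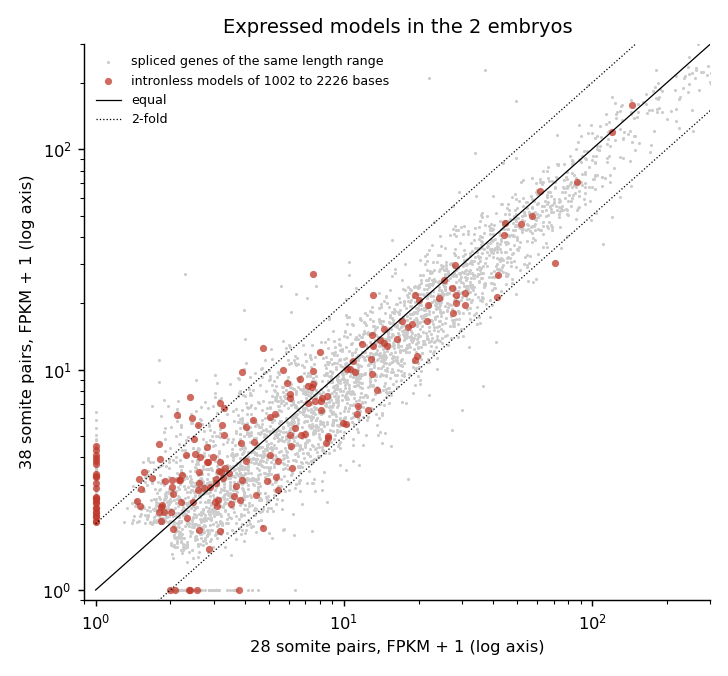
FPKM + 1 at 38 somite pairs against 28, both on log axes, for the 187 expressed intronless models (red) and expressed spliced genes of the same length range (grey), without the most abundant spliced genes, which lie beyond the axes. Points on the left edge are listed at 0 at 28, and points on the bottom edge at 0 at 38. At low levels more red points lie above the line of equality than below it. Of the 20 models with a mean of 20 FPKM or more, 16 lie below it, and the 2 models above 100 FPKM lie close to it. Of 926 spliced genes at 20 FPKM or more, 644 were lower at 38. Of the 187 models, 38 passed the filter through 38 somite pairs alone and 11 through 28 alone, so the low points are in part set by the filter.

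By level, the difference ran from higher at 38 to lower at 38, with the lowest class largely set by the filter. Of 65 expressed models with a mean FPKM under 2, 37 had passed through 38 alone, 10 through 28 alone and 18 through both. Over the 65, 50 were higher at 38, with a median log2 difference of 0.63. Over the 18 detected in both, 13 were higher at 38, with a median of 0.16. Of 258 spliced genes under 2 FPKM detected in both, 126 were higher at 38, with a median of -0.02. Of 49 models from 2 to 5 FPKM, 30 (61.2%) were higher at 38, with a median of 0.14, against 37.8% of spliced genes. The models above 5 FPKM were more often lower, as were spliced genes. From 5 to 10 FPKM 13 of 32 (40.6%) were higher at 38 (median -0.08), against 35.4% of spliced genes. From 10 to 20 FPKM 7 of 21 (33.3%) were higher (median -0.14), against 29.4%. At 20 FPKM or more, 4 of 20 (20%) were higher at 38 (median -0.22), against 30.5%. Spliced genes of the same length range had medians of 0.06, -0.16, -0.19, -0.22 and -0.19 in the same classes, a smaller change across levels.

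Summed fragments ran in the same direction, apart from the classes from 5 to 20 FPKM. Models under 2 FPKM went from 883 fragments to 1570, 1.91 times as many per mapped fragment (1.76 to 2.07). The value is over the same 65 models, most of which passed the filter through 38 alone, and rests in part on zeros. The values with zeros left out or filled keep that selection. With the 35 models listed above 0 in both embryos it was 1.33 (1.20 to 1.46), and with 9 fragments counted for each listed 0 at both stages 1.59 (1.47 to 1.71). In spliced genes under 2 FPKM the ratios were 1.04 (1.02 to 1.07) over all and 0.97 (0.95 to 1.00) over those listed in both. From 2 to 5 FPKM, where no model was at 0, the intronless ratio was 1.14 (1.08 to 1.21) and the spliced one 0.91 (0.90 to 0.93). From 5 to 10 FPKM the intronless ratio was 0.92 (0.88 to 0.96) and the spliced one 0.87. From 10 to 20 FPKM they were 0.95 (0.91 to 0.99) and 0.85. At 20 FPKM or more they were 0.84 (0.82 to 0.86) and 0.87 (0.87 to 0.88). Over all 371 models the ratio was 0.93 (0.92 to 0.95), set mainly by the abundant ones. Over all single-transcript genes it was 0.84, and over spliced genes of the same length range 0.88. For the 371 it was 1.12 (1.10 to 1.14) per fragment in listed transcripts, so its side of 1 depended on the scaling. That scaling multiplies the ratio of every set alike, so the order of the sets stays the same.

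**Figure D4:**
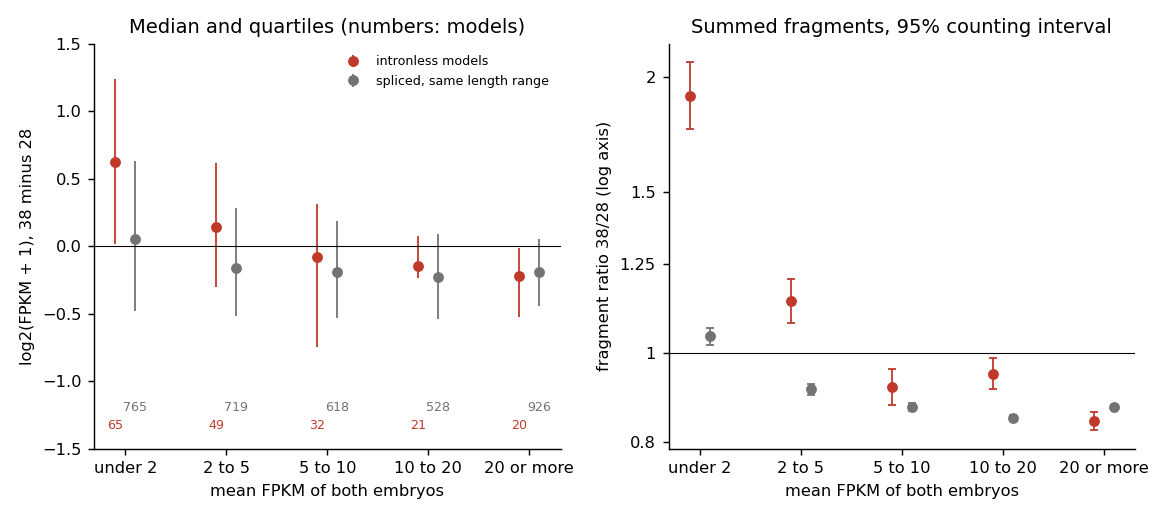
Left, median and quartiles of the log2(FPKM + 1) difference, 38 minus 28 somite pairs, by mean FPKM of both embryos, with the number of models in each class. Right, ratio of summed fragments per mapped fragment on a log axis, with its 95% counting interval. Intronless models (red) run from a ratio of 1.91 under 2 FPKM to 0.84 at 20 FPKM or more. Spliced genes of the same length range (grey) run from 1.04 to 0.87. Of the 65 intronless models under 2 FPKM, 37 passed the filter through 38 alone. Over the 35 listed above 0 in both embryos their ratio was 1.33.

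At 2-fold on the log2(FPKM + 1) scale, 37 of the 187 models (19.8%) were higher at 38 somite pairs, against a background of 8.58% of all expressed genes. Higher at 28 were 8 models (4.28%), against a background of 9.2%. Most of these rested on a 0. Of the 37, 24 were listed at 0 at 28, with 10 to 46.5 fragments at 38 (median 24). Of the 8, 6 were listed at 0 at 38, with 13 to 37 fragments at 28. Among genes of any kind, 613 of the 925 called higher at 38 were at 0 at 28. Likewise 537 of the 992 called higher at 28 were at 0 at 38, so such calls were not particular to the intronless models. Were each 0 to hide 9 fragments, 22 of the 24 and 2 of the 6 would still differ by 2-fold or more in fragments. Those models were called through their value in one embryo, so this filling keeps that selection and is no test of it. It was not computed for all genes. The effective length had been adjusted in 21 of the 24 and in all of the 6. By length, 15 of the 37 had 1251 to 1500 bases, where the median log2 difference over 40 expressed models was 0.54. Of these 40, 15 had passed the filter through 38 alone and 1 through 28 alone, and 11 of the 15 calls were at 0 at 28. Over the 24 of that class detected in both embryos the median was 0.18. In that class 1 model of 40 (2.5%) was 2-fold higher at 28, against 6.20% of spliced genes. Spliced genes of 1251 to 1500 bases had a median of -0.16. Classes on either side of it had 17 of 91 (1001 to 1250 bases) and 3 of 23 (1501 to 1750 bases) higher at 38. Of these, 11 and 1 were at 0 at 28. The shares of spliced genes in the 3 classes, from the shortest, were 9.36%, 8.23% and 7.29%.

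By counting intervals, about as many models lay above 1 as below it. Of 166 models with at least 10 fragments in both embryos, 36 (21.7%) had an interval wholly above 1 and 39 (23.5%) one wholly below 1. The background over all single-transcript genes was 17% above and 39.6% below. With a 2-fold ratio also required, 21 models (12.7%) were higher at 38 and 7 (4.22%) at 28, against a background of 5.82% and 8.82%. These backgrounds were not matched in level either. Of the 56 models with at least 100 fragments in both embryos, 0 were 2-fold higher at 38 and 1 was 2-fold higher at 28 on the FPKM scale, and 16 had a higher FPKM at 38. Over 4576 single-transcript genes so covered the shares were 0.918%, 2.99% and 29.8%, close to those of the 56 models. Their median log2 difference, -0.16, was close to the -0.19 of 1794 spliced genes so covered.

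Single models were ranked among the 70 with at least 100 fragments in one embryo and at least 10 in both. The largest fold towards 38 somite pairs was at ENSACAG00000012133 on scaffold GL343258.1 (2027364 to 2028542, 1179 bases). It had 6.53 FPKM at 28 and 26.2 at 38, from 92 and 342 fragments, a ratio of 3.99 (3.16 to 5.08). It has a neighbour of like length 35.8 kb away (1990283 to 1991560), which had 3.04 and 4.49 FPKM from 50 and 69 fragments. Both models of this group were thus higher at 38, the first by more. ENSACAG00000004720 on chromosome 1 (28471573 to 28473090, 1518 bases) had 3.73 and 11.6 FPKM, a ratio of 3.09 (2.37 to 4.08). Its fragment numbers, 75.49 and 216.96, were not whole. A model on chromosome 2 (15038153 to 15039517, 1365 bases) had 2.88 and 8.74 FPKM, a ratio of 3.03 (2.13 to 4.37).

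After these 3 the folds were below 2. A model on GL343296.1 (450307 to 451407) had 4.69 and 8.92 FPKM, a ratio of 1.88 (1.38 to 2.59). A model on chromosome 1 (96949460 to 96950527) had 12.2 and 20.7 FPKM, a ratio of 1.71 (1.38 to 2.12). The remaining 3 of the 8 largest, on chromosome 1 (48501096 to 48503006), chromosome 2 (31881526 to 31882914) and chromosome 3 (25167037 to 25168893), had ratios of 1.58, 1.57 and 1.46, with intervals above 1. All 8 lie at least 35.8 kb from the nearest listed gene. Only 1 of the 8, that on chromosome 1 with 12.2 and 20.7 FPKM, exceeded 10 FPKM at 28.

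In the other direction, ENSACAG00000017802 on chromosome 2 (196730213 to 196731991, 1779 bases) had 70.0 FPKM at 28 somite pairs and 29.5 at 38. Its 1381 and 539 fragments gave a ratio of 0.42 (0.38 to 0.46), or 2.39-fold higher at 28 (2.16 to 2.64). It is the sixth most abundant of the 371 models by mean FPKM and lies 4.72 kb from the nearest listed gene. It was the only one of the 8 most abundant to differ by 2-fold. ENSACAG00000002734 on chromosome 3 (200137893 to 200139008, 1116 bases) had 11.5 and 5.59 FPKM, a ratio of 0.49 (0.37 to 0.64). A model on chromosome 4 (26490333 to 26491928, 1596 bases) had 40.4 and 20.3 FPKM from 820 and 382 fragments, a ratio of 0.50 (0.44 to 0.57). This model lies 160.9 kb from the nearest listed gene.

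The other 5 of the 8 largest folds towards 28 were lower in level, at 5.17 to 10.3 FPKM at 28 and 2.58 to 5.32 at 38. They lay on chromosome 6 (63838547 to 63840229 and 50899205 to 50901271), chromosome 1 (175942673 to 175944094), chromosome 2 (9671697 to 9672716) and GL343325.1 (84216 to 85526). Their ratios ran from 0.51 to 0.53, and every interval lay below 1, the highest upper bound being 0.74. Of the 70 models ranked, 48 had a lower FPKM at 38 and 22 a higher one. Intervals lay below 1 for 27 (38.6%) and above 1 for 11 (15.7%). Over 5381 single-transcript genes with the same coverage, 53% lay below 1 and 17.2% above.

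**Figure D5:**
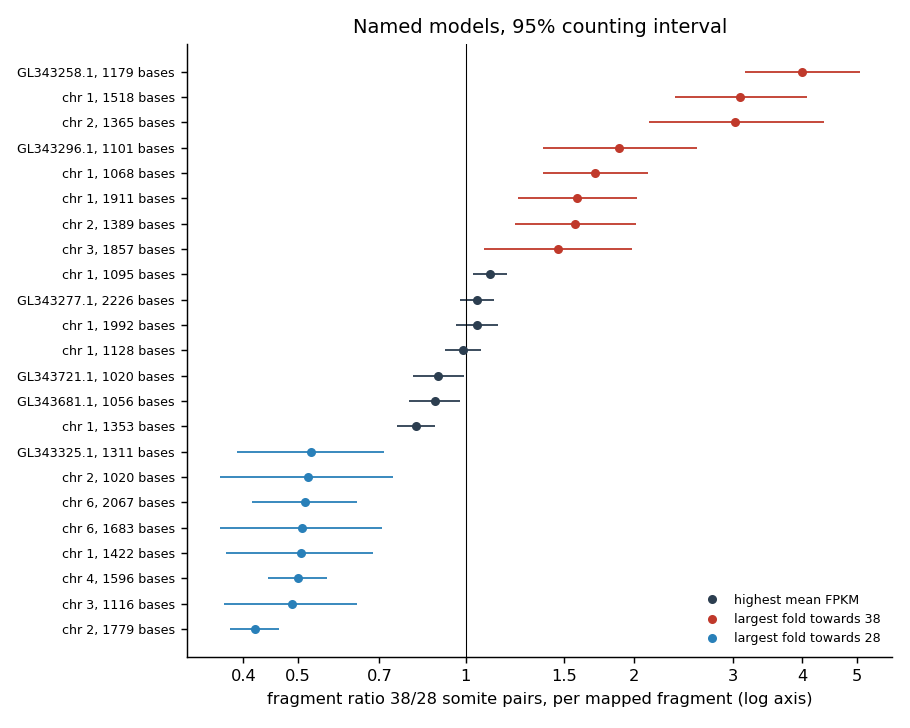
Ratio of fragments per mapped fragment, 38 over 28 somite pairs, on a log axis, with 95% counting intervals, for the 8 models with the largest folds towards 38 (red), the 8 with the largest folds towards 28 (blue) and the other most abundant models (dark). Each is labelled by its chromosome or scaffold and its length. The folds towards 38 run from 1.46 to 3.99, those towards 28 from 0.42 to 0.53, and the other abundant models lie between 0.81 and 1.10.

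Of the models listed in one embryo only, 37 were listed only at 38 and 18 only at 28, all with few fragments. Among all 21085 genes, 1059 were listed only at 38 and 915 only at 28. The 3 of the 37 models with most fragments at 38 lay on chromosome 1 (68876430 to 68877836), chromosome 5 (107620251 to 107621642) and chromosome 3 (108951072 to 108952187). They had 46.5, 42.0 and 38 fragments and 2.96, 2.86 and 3.52 FPKM. If 9 fragments were hidden at 28, their ratios would be 5.54, 5.01 and 4.53. Only the model on chromosome 5 had an effective length as annotated at 28. In the other direction, models on chromosome 5 (58700217 to 58701329) and chromosome 1 (236613088 to 236614089) had 37 and 25 fragments at 28, or 2.79 and 1.56 FPKM. With 9 fragments hidden at 38 they would be 3.83 and 2.59 times higher at 28. The next, on GL343502.1 (336658 to 338151), had 19 fragments and 0.92 FPKM. These models were picked by their fragments in one embryo, so ratios with 9 hidden fragments keep that selection.

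The small groups of neighbouring models of like length did not all differ in the same direction. Of 13 groups, 6 had no fragment listed in either embryo. On chromosome 1 (88971792 to 88982766), 2 models of 1080 bases each had 18 and 13 fragments at 28 and 43 and 56 at 38. Their summed ratio was 3.43 (2.27 to 5.31). The pair on GL343258.1 had a ratio of 3.11 (2.56 to 3.79), and 3 models of 1989 to 2100 bases on GL343318.1 (1397144 to 1431386) had 55 and 103 fragments, a ratio of 2.01 (1.44 to 2.84). Within that last group the first model had 20 and 14 fragments, and the other 2 had more at 38. The group on GL343482.1 (543493 to 556260) had a ratio of 0.54 (0.39 to 0.75). On GL343528.1 only the model at 280997 to 282052 was listed, with a ratio of 0.77 (0.64 to 0.91), and its neighbour at 235972 to 237018 was at 0 in both embryos. The pair on GL343502.1 (313756 to 338151) had 19 fragments in each model at 28 and was listed at 0 at 38. In the last group, on chromosome 6 (1325074 to 1331975), 1 of 2 models was listed, with 11 fragments at 38 only. The groups were formed by length and distance, and likeness of sequence was not tested. Neighbours of like sequence can share reads, so values of single models within a group may be uncertain.

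Most models had whole fragment numbers. Numbers that are not whole can arise where reads that align in several places are divided between loci, which was not tested here. Among those with under 100 fragments, 111 of 122 were whole within 0.02 at 28 somite pairs (91.0%) and 130 of 143 at 38 (90.9%), against 93.4% and 93.2% of spliced genes. In all, 23 of the 371 had a number that was not whole in at least one embryo. Among these, 3 pairs of models had the same length and the same remainder in both embryos, within 0.004 fragments. A pair of 1182 bases, on chromosome 6 (64182781 to 64183962) and GL344678.1 (42813 to 43994), had 152.65 and 148.65 fragments at 28 and 136.18 and 135.18 at 38. Their levels, 9.56 and 9.31 FPKM at 28 and 9.08 and 9.02 at 38, were close as well. A pair of 1122 bases, on chromosome 1 (92207955 to 92209076) and AAWZ02038313 (1247 to 2368), had 153.78 and 90.78 fragments at 28 and 102.85 and 66.85 at 38. A pair of 1503 bases, on AAWZ02039579 (1856 to 3358) and GL344451.1 (12476 to 13978), had 39.93 and 29.93 fragments at 28 and 41.43 and 30.43 at 38. Each of the 3 pairs thus joins models on separately assembled sequences. Whether they are copies or 1 locus assembled more than once was not tested, and their single values are uncertain.

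The length found most often among these 23 models was 1098 bases. Of 5 models of that length, 4 had numbers that were not whole in both embryos, and 1 was listed at 0 in both. The 4 were on chromosome 1 (26102200 to 26103297 and 183045446 to 183046543), GL343240.1 (547336 to 548433) and GL343582.1 (63957 to 65054). On chromosome 1 they had 6.68 and 7.55 FPKM at 28 and 6.18 and 6.55 at 38. The model on GL343582.1 had 12.0 and 13.4 FPKM, and that on GL343240.1 had 1.44 and 5.05. Models of equal length thus differed in direction, with only the last past 2-fold.

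Distance to the nearest gene was compared with detection on chromosomes 1 to 6. Under 10 kb, 20 of 40 models were detected at 28 somite pairs and 26 at 38. From 10 to 30 kb the numbers were 25 and 34 of 51, and from 30 to 100 kb 35 and 41 of 61. At 100 kb or more they were 14 and 16 of 19. The most isolated models were thus detected most often at both stages, in a class of only 19. The share of spliced genes detected at 28 ran the other way, from 918 of 1200 under 10 kb to 81 of 122 at 100 kb or more. Among expressed models, 7 of 27 under 10 kb, 7 of 35 from 10 to 30 kb, 10 of 44 from 30 to 100 kb and 1 of 16 beyond were 2-fold higher at 38. The shares of spliced genes in these classes were 5.27%, 8.96%, 9.34% and 9.57%, and that of all expressed genes was 8.58%. Of the intronless models so called, 6, 4, 8 and 0 by class were listed at 0 at 28. By class, 7, 10, 9 and 2 intronless models had passed the filter through 38 alone, so these counts are in part set by the filter. Higher at 28 by 2-fold were 2, 1, 3 and 0 models (7.41%, 2.86%, 6.82% and 0%). The shares of spliced genes were 4.86%, 5.64%, 4.80% and 2.13%, and that of all expressed genes was 9.2%. In both directions, the shares of spliced genes and of all expressed genes were not matched in level to the models.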

How the data were processed

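RNA of 2 whole embryos was sequenced from NuGEN Ovation RNA-Seq libraries, per the labels' protocols. Untrimmed reads were aligned with TopHat to AnoCar2.0, per the series description, and the submitters' processing notes also list Cufflinks. For neither tool is a version given in the sources used here. The deposited values are FPKM per gene and per transcript, per the file headers. The deposited transcript tables also hold a fraction of the locus and a coverage signal, which were not used, and an effective length, which was.

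Fragment numbers were computed as FPKM times effective length times a total per library. The total was the step at which values fell on whole numbers within 0.02, which held for 93.1% of 4575 single-transcript loci under 100 fragments at 28 somite pairs and 92.6% of 5074 at 38. It assumes that FPKM were scaled to all mapped fragments. Differences are log2(FPKM + 1). Counting intervals are exact 95% intervals of the fragment ratio, taken on fragment numbers rounded down. No test was run, as each stage is 1 library. The calculation was tested on simulated data.

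The members, classes and lists were chosen with earlier results of these data known. Named models are the 8 highest in mean FPKM, the 8 largest folds each way among those with at least 100 fragments in one embryo and 10 in both, the 3 each way with most fragments that were listed at 0 in the other, and the neighbouring groups. Models with fragment numbers that are not whole, the length class from 1251 to 1500 bases, the distance classes and the class values over models detected in both embryos were chosen after values were seen. Of the identifiers, 0 of 21085 matched the reference table of gene names (rAnoCar3.1), so no gene list was applied and no sequence is printed. Alternatives covered the pseudocount, filters, scaling, fold, length limits and the treatment of zeros. Tools were scipy 1.17.1, pandas 2.3.3 and numpy 2.4.6 under Python 3.11.15, with matplotlib 3.10.9 for figures.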

Additional observations from a re-analysis of the deposited data

Results flagged for a closer look

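Intronless models of the same length range whose length is not divisible by 3 were not among the 371 and entered only as an alternative setting, yet held fragments. These 38 models held 595 fragments in the younger embryo and 931 in the older, 1.68 times as many per mapped fragment (95% counting interval 1.51 to 1.86). Detected at an FPKM of 1 or more were 7 at 28 and 8 at 38. Most of the gain lay in a model of 1339 bases on GL343822.1 (138568 to 139906), with 154.75 and 415.42 fragments, a ratio of 2.89 (2.40 to 3.50). There was 1 library per stage, so samples far from others and differences between groups of samples were not tested.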

How the results depend on the processing

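No paired analysis was possible because a single library stands for each stage, and no replicate could be left out. The higher number detected at 38 somite pairs depended on the threshold. At 5 FPKM or more, 74 models were detected at 28 and 74 at 38. With the length limits widened by 10%, 239 and 291 of 578 models were detected, against 149 and 176 of 371. The median log2 difference changed sign with the filter, to -0.14 at 5 FPKM or more in one embryo, -0.016 at 1 FPKM or more in both and -0.16 with at least 100 fragments in both. It was 0.22 with equal FPKM sums, 0.24 when the 100 most abundant genes were left out of those sums, 0.29 with equal medians (0.285) and 0.29 with equal upper quartiles, scalings that multiplied values at 38 by 1.104 to 1.170. Taken relative to all genes under the same setting, it was 0.27 in the main setting. Over 17 alternatives it ran from 0 to 0.34 and was above 0 in 16. The scalings (0.258 to 0.268) multiply every value at 38 alike, so they could hardly change it. Alternatives of pseudocount and length kept models that passed through 38 alone. It was 0.073 at 5 FPKM or more, 0.17 at 1 FPKM or more in both and 0.047 with at least 100 fragments in both. The 37 models 2-fold higher at 38 became 1 with a pseudocount of 5, 8 at 5 FPKM or more, 9 at 1 FPKM or more in both, 13 when listed in both and 0 with at least 100 fragments in both. They became 45 with a pseudocount of 0.1, 73 of 312 expressed models with wider lengths, 53 at 1.5-fold, 3 at 4-fold and 21 by 2-fold counting intervals. The 8 higher at 28 became 13 with a pseudocount of 0.1, 1 with a pseudocount of 5 and 1 at 5 FPKM or more. They became 1 at 1 FPKM or more in both, 2 when listed in both and 1 with at least 100 fragments. With wider lengths they became 17 of 312 expressed models, and they became 30 at 1.5-fold and 0 at 4-fold. Among genes of any kind, 312 of the 925 higher at 38 and 455 of the 992 higher at 28 were listed in both. With at least 100 fragments in both, 0.918% and 2.99% of 4576 genes were called, and by 2-fold counting intervals 5.82% and 8.82% of 8811. The share of all genes was not computed for the other settings, so how these counts stand against it there was not tested. The summed fragment ratio of 0.93 was 0.883 with 9 fragments for each 0 at 28, 0.987 with 9 for each 0 at 38, 0.913 without the 5 models with most fragments and 1.12 per listed fragment. Under 2 FPKM, the ratio of 1.91 was 1.53 with 9 for each 0 at 28, 1.59 with 9 at both stages, 1.33 for models listed in both and 2.29 per listed fragment. At 20 FPKM or more, 0.84 became 1.01 per listed fragment and 0.883 without the chromosome 2 model at 196730213. Of the single models named for level or fold with an interval apart from 1, those on GL343681.1 and GL343721.1 changed sign. Their log2 folds were 0.016 and 0.034 under equal medians and 0.021 and 0.039 under equal upper quartiles. The chromosome 1 model at 181137095, whose interval held 1, went from -0.015 to 0.128, 0.206 and 0.212 under equal sums, medians and upper quartiles. The cause of these changes was not tested, beyond fewer models entering under stricter filters. Depth limits models under 10 fragments, whose listed 0 does not show absence.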
